A study of Homo sapiens with 6 samples.

Results

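The genes described here are 41 receptors, ligands and cytoplasmic adaptors of axon guidance, taken by name from the Robo/Slit, Eph/ephrin, semaphorin/plexin and netrin families out of 34913 genes in the deposited files. They were measured by poly(A) RNA-seq in THP-1, an established human monocytic leukaemia line that grows in suspension. The groups were THP-1 cells supplied by the American Type Culture Collection (ATCC, 3 libraries) and by the German collection DSMZ (3 libraries). All 6 cultures were untreated and kept side by side in RPMI with 20% fetal bovine serum, grown for 48 h, divided and grown for a further 24 h, and taken during logarithmic growth. The labels give no genetic change, drug or passage number for either group, and they describe the replicate expansions as independent. Because each bank is represented by the stock that was bought, bank and stock cannot be told apart.

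Axon guidance proteins were named for steering growing nerve fibres, but they act in many tissues on the actin cytoskeleton, on cell adhesion and on cell movement. Slit proteins are secreted and bind Robo receptors, whose cytoplasmic tails recruit the srGAP proteins. Eph receptors are tyrosine kinases that bind ephrins on a neighbouring cell, and the ephrin-bearing cell can also be signalled to in return. Semaphorins bind plexins, with neuropilins as co-receptors for the secreted class, and netrins bind DCC, neogenin and UNC5 receptors. In blood cells, Slit and Robo are known for restraining chemokine-driven migration, and several class 4 semaphorins and plexins are known for roles in immune cell contacts.

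The libraries held 23413428 to 37119721 estimated counts. Levels are given in CPM (estimated counts scaled to the total assigned to genes in each library), always in the order of replicates 1, 2 and 3, and fold changes are log2 values of DSMZ minus ATCC, negative where a gene was higher in ATCC. Of 16 genes of monocytic identity, 15 had a mean of at least 1 TPM (the deposited length-scaled abundance) in both sources. The exception was CD14, a lipopolysaccharide co-receptor, which was under that level in DSMZ. The summed level of 18 neuron and glia markers was 36.0 to 44.8 TPM in the ATCC libraries and 67.9 to 74.7 TPM in the DSMZ libraries. SNAP25 (mean 0.439 TPM in ATCC and 15.5 in DSMZ) and OLIG2 (5.32 and 17.6) carried most of that gap. MBP was at 33.0 and 34.4 TPM, MAP2 went the other way (0.799 and 0.0111), and NEFL, SYT1, GAP43 and SOX2 had no count in any library. The endothelial list summed to 126.5 to 152.8 TPM in ATCC and 77.9 to 95.8 TPM in DSMZ, nearly all of it from PECAM1 (133.8 and 86.1 TPM), and its defining member CDH5 had no count. ATCC replicate 2 stood apart by base composition: its median deviation from the mean of the other ATCC libraries was -0.94 (log2) in the tenth of genes lowest in GC and 0.34 in the tenth highest. The share of the marker lists and of base composition in the results below was not tested, except where a value is given.

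The sequences upstream of 5 genes that the results turn on are shown first, because most of the counts of these genes in the source where they were high fell on transcripts that begin at or near these starts. ROBO1 is shown at both of its major start sites, EPHB1, EFNB1 and SEMA4F as genes higher in ATCC, and EPHB4 as a gene higher in DSMZ. Each window holds the 250 bases before the RefSeq start in lower case and the 50 bases from the start in capitals, 5′ to 3′ on the strand of the gene (RefSeq, GRCh38.p14). At the far ROBO1 start the counted transcript, ROBO1-202, begins 183 bases downstream of the RefSeq start.
ROBO1 far start (chr3:79767949-79768248, minus strand): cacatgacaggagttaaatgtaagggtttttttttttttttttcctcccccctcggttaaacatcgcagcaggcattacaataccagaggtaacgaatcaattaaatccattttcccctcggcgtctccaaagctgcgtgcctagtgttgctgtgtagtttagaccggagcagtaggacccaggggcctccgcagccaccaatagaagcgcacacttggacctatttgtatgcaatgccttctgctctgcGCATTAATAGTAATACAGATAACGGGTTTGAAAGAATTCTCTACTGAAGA
ROBO1 near start (chr3:79019410-79019709, minus strand): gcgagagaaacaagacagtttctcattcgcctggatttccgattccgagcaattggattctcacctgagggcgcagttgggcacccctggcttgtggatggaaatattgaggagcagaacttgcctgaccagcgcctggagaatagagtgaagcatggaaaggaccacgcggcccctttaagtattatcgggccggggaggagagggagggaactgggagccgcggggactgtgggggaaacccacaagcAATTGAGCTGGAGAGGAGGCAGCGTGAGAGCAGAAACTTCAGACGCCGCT
EPHB1 (chr3:134795010-134795309, plus strand): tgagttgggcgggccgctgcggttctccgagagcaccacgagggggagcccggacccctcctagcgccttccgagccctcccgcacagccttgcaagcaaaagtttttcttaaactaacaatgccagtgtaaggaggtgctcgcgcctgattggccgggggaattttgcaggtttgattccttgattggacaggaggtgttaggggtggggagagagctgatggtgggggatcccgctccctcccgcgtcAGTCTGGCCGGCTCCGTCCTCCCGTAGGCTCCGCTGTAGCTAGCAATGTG
EFNB1 (chrX:68828771-68829070, plus strand): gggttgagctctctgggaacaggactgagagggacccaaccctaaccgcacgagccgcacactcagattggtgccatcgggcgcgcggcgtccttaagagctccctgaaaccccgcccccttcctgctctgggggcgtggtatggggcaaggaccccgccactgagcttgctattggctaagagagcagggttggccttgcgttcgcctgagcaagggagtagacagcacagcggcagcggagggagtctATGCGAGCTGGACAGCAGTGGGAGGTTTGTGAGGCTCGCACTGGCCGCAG
SEMA4F (chr2:74653997-74654296, plus strand): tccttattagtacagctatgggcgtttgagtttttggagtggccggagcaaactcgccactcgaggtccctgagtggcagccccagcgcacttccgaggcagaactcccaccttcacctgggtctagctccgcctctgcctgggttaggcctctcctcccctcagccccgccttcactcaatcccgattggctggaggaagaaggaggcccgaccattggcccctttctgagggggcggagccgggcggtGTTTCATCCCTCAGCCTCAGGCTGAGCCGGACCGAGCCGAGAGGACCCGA
EPHB4 (chr7:100827474-100827773, minus strand): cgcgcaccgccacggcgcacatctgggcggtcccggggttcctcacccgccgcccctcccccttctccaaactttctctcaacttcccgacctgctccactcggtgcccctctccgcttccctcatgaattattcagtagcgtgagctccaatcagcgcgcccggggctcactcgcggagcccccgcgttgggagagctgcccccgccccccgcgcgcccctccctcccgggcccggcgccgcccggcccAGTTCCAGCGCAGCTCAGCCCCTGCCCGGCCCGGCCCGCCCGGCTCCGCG
The windows held 11 CG pairs at the far ROBO1 start, 15 at the near ROBO1 start, 19 at EPHB1, 18 at EFNB1, 17 at SEMA4F and 36 at EPHB4, against a median of 14 over 35116 RefSeq promoters of the same length. The GC box (GGGCGG, either strand) was found once in EPHB1 and once in EFNB1, 2 times in SEMA4F, 5 times in EPHB4 and not at either ROBO1 start; 45.0% of all promoters held it. The CCAAT motif (either strand) was in each of the 6 windows and in 34.6% of all promoters. The PU.1 motif searched (GAGGAAGT, either strand, held by 2.59% of all promoters) and the RUNX motif searched (TGTGGT, either strand, 13.1%) were in none of the 6. These are matches of letters and say nothing of a factor's binding.

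Of the 41 members, 32 passed the filter on low counts and were tested. By the quasi-likelihood test of edgeR, with p-values adjusted by Benjamini-Hochberg over all genes, 24 of the 32 differed between the sources at an adjusted p under 0.05; over all 14577 tested genes the share was 49.8%. Of these, 16 were higher in ATCC (25.7% of all tested genes were) and 8 were higher in DSMZ (24.1%). The number higher in DSMZ was 5 without ATCC replicate 1, without ATCC replicate 3, without DSMZ replicate 1 or without DSMZ replicate 2. A change of at least 2-fold was called for 13 members, 11 of them higher in ATCC, against 21.3% of all tested genes. The libraries of the sources did not overlap in CPM for 27 of the 32, against 61.7% of all tested genes. The median fold change was -0.40 over the 32 and 0.01 over all tested genes. The 9 members that were too low to test are given with their families. These counts cover only members that passed the filter, and the members were compared with all genes by description only. The members were also chosen with earlier results of these data known, so the counts are no independent support for an excess or a direction. Of 19 tested genes of the same families outside the list, 7 were called higher in DSMZ and 5 higher in ATCC.

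**Figure D1:**
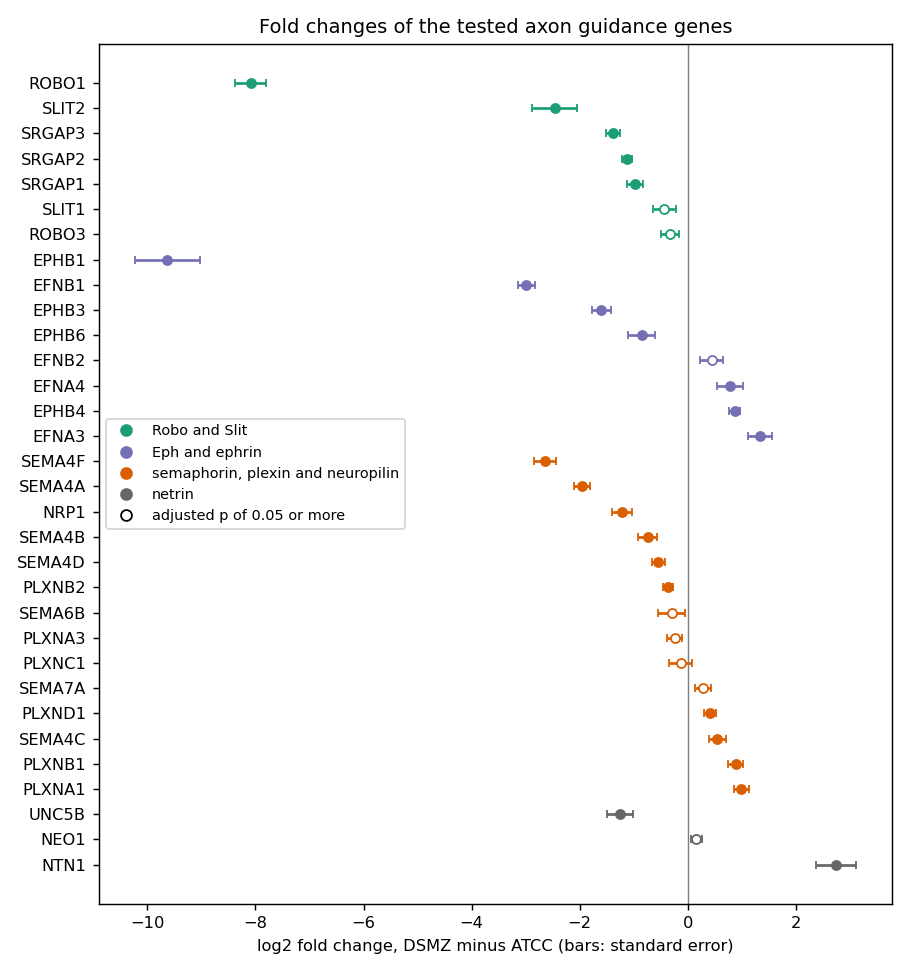
Log2 fold change (DSMZ minus ATCC) of the 32 tested members, grouped by family, with bars of 1 SE; filled points had an adjusted p under 0.05 and open points did not. ROBO1 and EPHB1 lie far to the ATCC side, and NTN1 and EFNA3 are the members farthest to the DSMZ side.

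The Robo and Slit family with its srGAP adaptors had 7 tested members out of 9, with a median fold change of -1.13 over the 7. All 5 that were called were higher in ATCC. Over all tested genes, 49.8% were called and 25.7% were called higher in ATCC. ROBO1 (chr3:78597240-79767815, minus strand, GRCh38), the receptor for Slit ligands, measured 76.6, 55.3 and 91.4 CPM in ATCC and 0.300, 0.282 and 0.217 CPM in DSMZ. Every ATCC library was above every DSMZ library, and the lowest ATCC value was that of replicate 2, the library that stood apart by base composition; ROBO1 transcripts have a GC content of 46.1%. The means were 74.4 ± 18.2 (SD, n = 3) and 0.266 ± 0.0438 CPM, a fold change of -8.09 (SE 0.29, edgeR quasi-likelihood, Benjamini-Hochberg adjusted p = 3.54e-06), or 273-fold. The total was 6106 estimated counts in ATCC and 23 in DSMZ. In bulk RNA, fewer cells with ROBO1 transcripts and less ROBO1 RNA per cell cannot be told apart.

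SLIT2 (chr4:20253260-20620561), a secreted ligand of ROBO1, measured 1.21, 0.665 and 1.23 CPM in ATCC and 0.0856, 0.246 and 0.189 CPM in DSMZ. It was scarce in both sources, at 85 counts in all ATCC libraries and 16 in all DSMZ libraries, but the groups did not overlap. Its fold change was -2.46 (SE 0.41, edgeR quasi-likelihood, adjusted p = 0.00203). The receptor and this ligand were thus both higher in the ATCC libraries. ROBO3, a Robo receptor known from axons that cross the midline, measured 9.24, 11.5 and 8.93 CPM in ATCC and 7.92, 8.75 and 6.21 CPM in DSMZ, and its fold change of -0.33 (95% interval -0.71 to 0.05) did not pass the test (edgeR, adjusted p = 0.129). With protein-coding transcripts only, the fold change was -2.64 and did not pass either (edgeR adjusted p = 0.0756). The coding counts were those of ROBO3-221, looked up after that value was seen, at 18.1, 65.7 and 80.1 in ATCC and 0, 0 and 29.7 in DSMZ. The other ROBO3 counts lay on transcripts annotated as retained introns or processed transcripts. SLIT1 measured 3.09 to 4.77 CPM in ATCC and 2.23 to 3.16 CPM in DSMZ, with a fold change of -0.43 (95% interval -0.92 to 0.05, edgeR adjusted p = 0.122). ROBO2 and SLIT3 were not tested: ROBO2 had 17 counts in ATCC and 7 in DSMZ, and SLIT3 had 18 and 22.

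All 3 srGAP genes were higher in ATCC. SRGAP2 (chr1:206203345-206464443), whose protein bends membranes, measured 226.0, 236.7 and 201.6 CPM in ATCC and 101.0, 101.6 and 91.1 CPM in DSMZ. Its ATCC libraries all lay above its DSMZ libraries, with means of 221.4 ± 18.0 and 97.9 ± 5.91 CPM and a fold change of -1.13 (SE 0.10, edgeR adjusted p = 9.19e-05). Reads of this gene can be shared with its near-identical human copies, so its value is uncertain. SRGAP2B had a fold change of -0.32 (edgeR adjusted p = 0.332), SRGAP2C 0.06 (adjusted p = 0.854) and SRGAP2D -1.32 (adjusted p = 0.00525). Their mean levels in ATCC and DSMZ, in that order, were 131.6 and 102.1 CPM for SRGAP2B, 113.8 and 115.2 CPM for SRGAP2C, and 8.82 and 3.48 CPM for SRGAP2D.

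SRGAP3 (chr3:8980591-9363053) measured 7.32, 7.32 and 7.68 CPM in ATCC and 3.02, 2.72 and 2.55 CPM in DSMZ, a fold change of -1.39 (SE 0.13, edgeR adjusted p = 0.000151) that was -2.08 with protein-coding transcripts only (adjusted p = 8.9e-05). SRGAP1 (chr12:63844293-64162221), the adaptor first described as a partner of ROBO1 in Slit signalling, measured 5.96, 5.52 and 5.22 CPM in ATCC and 2.47, 2.66 and 3.00 CPM in DSMZ, a fold change of -0.98 (SE 0.15, edgeR adjusted p = 0.00118). The replicate libraries of each source lay close together for both genes, and the sources did not overlap.

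ROBO1 has start sites 748.4 kb apart, and their transcripts encode receptors with different amino-terminal ends. In the ATCC libraries, transcripts that began within 2000 bases of the far start (chr3, position 79767815) held 1074, 783.5 and 1154 estimated counts, or 49.9, 55.4 and 45.5% of the gene. Transcripts that began within 2000 bases of the near start (position 79019459) held 970.3, 603.1 and 1269 counts, or 45.0, 42.7 and 50%. Both starts were therefore in use in ATCC at about equal shares. In DSMZ the far start had 4.18 counts and the near start 6.44 counts over all 3 libraries, and 12.4 counts fell on other transcripts. Of those, 10.04 counts (43.6% of the DSMZ total) were on ROBO1-206, which the annotation calls a retained intron. The division among transcripts is kallisto's estimate and was not tested.

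**Figure D2:**
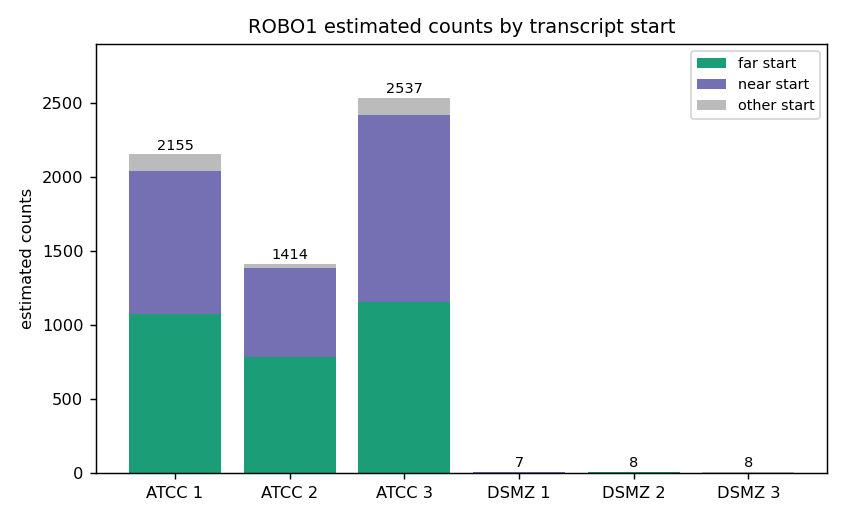
Estimated counts of ROBO1 in each library, stacked by the start site of the transcript (far, near, other), with the gene's rounded total above each bar. The ATCC bars are divided almost evenly between the far and near starts, and the DSMZ bars hold 7 to 8 counts each.

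Eph receptors and ephrins had 8 tested members out of 11, and 7 were called, 4 higher in ATCC and 3 higher in DSMZ. The shares of all tested genes were 49.8% called, 25.7% higher in ATCC and 24.1% higher in DSMZ. EPHB1 (chr3:134597801-135260467), a receptor tyrosine kinase for B-type ephrins, measured 11.6, 9.07 and 17.7 CPM in ATCC and 0.0428, 0 and 0 CPM in DSMZ. The ATCC libraries together held 1048 counts and the DSMZ libraries 1, on a DSMZ floor of 0.0338 CPM (3 counts over the 3 libraries). The ratio of the sources was 1143, with a 95% counting interval of 204.7 to 45190 that covers counting error only, and the difference passed the test (edgeR quasi-likelihood, adjusted p = 2.86e-05). EPHB1-201 carried 99.3% of the ATCC counts and none of the DSMZ counts.

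EFNB1 (chrX:68828997-68842147), a transmembrane ephrin that binds EphB receptors, measured 13.7, 17.8 and 14.2 CPM in ATCC and 1.93, 2.03 and 1.62 CPM in DSMZ. It remained detectable in every DSMZ library, below every ATCC library, with a fold change of -2.99 (SE 0.16, edgeR adjusted p = 1.74e-05), or 7.94-fold. A receptor and a ligand of the EphB class were thus both higher in ATCC. EPHB3 (chr3:184561784-184582409), another receptor for B-type ephrins, measured 2.81, 3.09 and 2.99 CPM in ATCC and 1.03, 0.984 and 0.837 CPM in DSMZ, a fold change of -1.60 (SE 0.17, edgeR adjusted p = 0.000241). EPHB6 (chr7:142855061-142871094), a receptor that lacks kinase activity, was also lower in DSMZ, at 2.95, 4.69 and 4.54 CPM in ATCC and 2.31, 2.64 and 1.62 CPM in DSMZ (fold change -0.85, SE 0.25, edgeR adjusted p = 0.0232). Of its counts, 71.6% lay on a transcript matched to the gene by symbol only, and the call was lost with primary assembly transcripts alone (-1.06, edgeR adjusted p = 0.145) and with limma on TPM (-0.12, adjusted p = 0.595). It was also lost without ATCC replicate 3 (edgeR adjusted p = 0.0728), DSMZ replicate 1 (0.0539) or DSMZ replicate 3 (0.0836).

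EPHB4 (chr7:100802565-100827521), the receptor that pairs with ephrin-B2 in blood vessel formation, ran the other way. It measured 12.8, 14.1 and 12.2 CPM in ATCC and 22.4, 23.7 and 22.7 CPM in DSMZ. Its replicates lay within a narrow range in each source, without overlap, and its fold change was 0.87 (SE 0.10, edgeR adjusted p = 0.000376). EFNB2, its ligand, was at 0.640 to 0.757 CPM in ATCC and 0.837 to 0.949 CPM in DSMZ, and a fold change of 0.44 (95% interval -0.05 to 0.93) did not pass (edgeR adjusted p = 0.130).

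Of the A-type ephrins, which are tethered to the membrane by a lipid anchor, EFNA3 and EFNA4 were tested, and both were low and higher in DSMZ. EFNA3 (chr1:155078872-155087538) measured 0.533, 0.469 and 0.396 CPM in ATCC and 1.07, 1.16 and 1.19 CPM in DSMZ, a fold change of 1.33 (SE 0.22, edgeR adjusted p = 0.00203). Its neighbour EFNA4 (chr1:155063731-155069553) measured 1.24, 2.27 and 1.297 CPM in ATCC and 2.70, 2.71 and 2.54 CPM in DSMZ, a fold change of 0.78 (SE 0.24, edgeR adjusted p = 0.0314). The sources did not overlap for either gene, although ATCC replicate 2 came near the DSMZ libraries for EFNA4, whose call was lost without any one of the other 5 libraries (edgeR adjusted p 0.07508 to 0.128) and with upper quartile normalization (0.69, adjusted p = 0.0623). EFNA1, EPHA4 and EPHB2 were not tested, with 1, 2 and 10 counts in ATCC and 2, 5 and 18 in DSMZ.

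Semaphorins, plexins and neuropilins had 14 tested members out of 17, and 10 were called, against 49.8% of all tested genes. Of the 7 tested semaphorins, 4 were called higher in ATCC and 1 in DSMZ. Of the 6 tested plexins, 1 was called higher in ATCC and 3 in DSMZ. Among all tested genes, 25.7% were called higher in ATCC and 24.1% higher in DSMZ. SEMA4A (chr1:156147366-156177752), a transmembrane semaphorin known for costimulating T cells, measured 75.9, 104.0 and 75.7 CPM in ATCC and 22.4, 20.5 and 20.7 CPM in DSMZ. Every ATCC library exceeded every DSMZ library, with means of 85.2 ± 16.3 and 21.2 ± 1.04 CPM and a fold change of -1.96 (SE 0.14, edgeR adjusted p = 5.1e-05), or 3.89-fold. SEMA4F (chr2:74654228-74683853) measured 4.07, 5.28 and 4.16 CPM in ATCC and 0.716, 0.554 and 0.777 CPM in DSMZ, a fold change of -2.64 (SE 0.21, edgeR adjusted p = 6.84e-05), or 6.22-fold. These were the only members of the semaphorin and plexin classes with a called change of at least 2-fold.

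The other class 4 semaphorins differed by less. SEMA4B (chr15:90160604-90229679) measured 6.72, 9.89 and 7.64 CPM in ATCC and 4.54, 4.22 and 5.16 CPM in DSMZ (fold change -0.75, SE 0.17, edgeR adjusted p = 0.00934). SEMA4D (chr9:89360787-89498130), also called CD100 and a ligand of PLXNB1, measured 34.9, 42.3 and 32.9 CPM in ATCC and 24.8, 25.5 and 22.5 CPM in DSMZ (fold change -0.55, SE 0.12, edgeR adjusted p = 0.00672). SEMA4C (chr2:96859716-96870757), a ligand of PLXNB2, measured 18.6, 27.1 and 19.2 CPM in ATCC and 30.5, 32.1 and 28.97 CPM in DSMZ (fold change 0.55, SE 0.15, edgeR adjusted p = 0.0188). None of these 3 genes overlapped between the sources, and ATCC replicate 2 was the highest ATCC library for each of them. The SEMA4C call was lost with upper quartile normalization (0.46, edgeR adjusted p = 0.0619), with protein-coding transcripts only (0.52, adjusted p = 0.0849) and without ATCC replicate 1, ATCC replicate 3, DSMZ replicate 1 or DSMZ replicate 2 (adjusted p 0.0677 to 0.105), and the SEMA4D call with limma on TPM (-0.58, adjusted p = 0.0523). SEMA6B (fold change -0.29, 95% interval -0.88 to 0.29) and SEMA7A, which is lipid-anchored (0.28, 95% interval -0.05 to 0.61), overlapped between the sources and did not pass (edgeR adjusted p = 0.361 and 0.136). SEMA7A passed under 2 of 18 alternatives, among them without ATCC replicate 2 (0.37, edgeR adjusted p = 0.0454).

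Among the plexins, the receptors for semaphorins, PLXNA1 (chr3:126988594-127037392) measured 30.6, 43.7 and 37.6 CPM in ATCC and 67.0, 76.8 and 70.1 CPM in DSMZ, a fold change of 0.98 (SE 0.14, edgeR adjusted p = 0.00089). PLXNB1 (chr3:48403854-48430051) measured 6.96, 7.31 and 5.40 CPM in ATCC and 11.7, 11.8 and 11.7 CPM in DSMZ, a fold change of 0.89 (SE 0.14, edgeR adjusted p = 0.00143). The receptor PLXNB1 was thus higher, and its ligand SEMA4D lower, in DSMZ than in ATCC. PLXND1 (chr3:129555175-129606818), a receptor known from vessel patterning, measured 88.2, 117.3 and 106.0 CPM in ATCC and 132.9, 132.0 and 136.3 CPM in DSMZ (fold change 0.41, SE 0.11, edgeR adjusted p = 0.0187). PLXNB2 (chr22:50274979-50307627) measured 350.2, 414.6 and 336.0 CPM in ATCC and 293.5, 274.2 and 257.8 CPM in DSMZ (fold change -0.37, SE 0.10, edgeR adjusted p = 0.0182). The PLXND1 call was lost without any 1 of the libraries other than ATCC replicate 2 (edgeR adjusted p 0.0635 to 0.0845) and with upper quartile normalization (0.33, adjusted p = 0.0831), and the PLXNB2 call without any 1 of the DSMZ libraries (0.0509 to 0.0902). For PLXNB2 the receptor was lower in DSMZ and its ligand SEMA4C higher, the reverse of the pair above. PLXNA3 (fold change -0.24, 95% interval -0.56 to 0.07, edgeR adjusted p = 0.173) and PLXNC1, the receptor of SEMA7A (-0.13, 95% interval -0.62 to 0.35, adjusted p = 0.621), did not pass, and PLXNA2 had 5 counts in ATCC and 12 in DSMZ and was not tested. PLXNA3 passed under 1 of 18 alternatives, over which its fold change ran from -0.77 to -0.12. Its TPM values did not overlap, at 6.35, 5.96 and 5.89 in ATCC and 3.73, 2.85 and 3.51 in DSMZ. The sign of PLXNC1 turned without ATCC replicate 1 (0.0065) or without DSMZ replicate 3 (0.03), where PLXNC1 did not pass either (edgeR adjusted p = 0.981 and 0.921).

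NRP1 (chr10:33177492-33336262), a co-receptor for class 3 semaphorins and for vascular endothelial growth factor, measured 13.95, 10.1 and 13.9 CPM in ATCC and 6.16, 4.54 and 5.15 CPM in DSMZ. The sources did not overlap, and the fold change was -1.22 (SE 0.19, edgeR adjusted p = 0.00137). The related co-receptor NRP2, which was too low to test, measured 0.464, 0.479 and 0.314 CPM in ATCC and 0.133, 0.145 and 0.0832 CPM in DSMZ (34 and 10 counts). SEMA3C, a secreted ligand of the neuropilins and also too low to test, measured 0.775, 0.356 and 0.865 CPM in ATCC and 0, 0.142 and 0.0663 CPM in DSMZ (55 and 6 counts). Both lay higher in every ATCC library than in any DSMZ library.

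Of the 4 netrin genes, 3 were tested. NTN1 (chr17:9021542-9244000), the secreted ligand, was scarce, at 0.0711, 0.156 and 0.108 CPM in ATCC and 0.556, 0.808 and 0.837 CPM in DSMZ, or 9 and 67 counts. Every DSMZ library lay above every ATCC library, with a fold change of 2.75 (SE 0.37, edgeR adjusted p = 0.000703). UNC5B (chr10:71212570-71302864), a netrin receptor that mediates repulsion, measured 4.48, 4.69 and 2.85 CPM in ATCC and 1.88, 1.69 and 1.35 CPM in DSMZ, a fold change of -1.25 (SE 0.24, edgeR adjusted p = 0.00368). NEO1, which codes for the netrin and RGM receptor neogenin, measured 26.0, 28.9 and 26.2 CPM in ATCC and 29.01, 30.9 and 27.7 CPM in DSMZ and did not pass (fold change 0.16, 95% interval -0.07 to 0.38, edgeR adjusted p = 0.215). It passed under 3 of 18 alternatives, among them without ATCC replicate 2 (0.20, edgeR adjusted p = 0.0394). DCC, the attractive netrin receptor, had no count in ATCC and 2 in DSMZ.

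**Figure D3:**
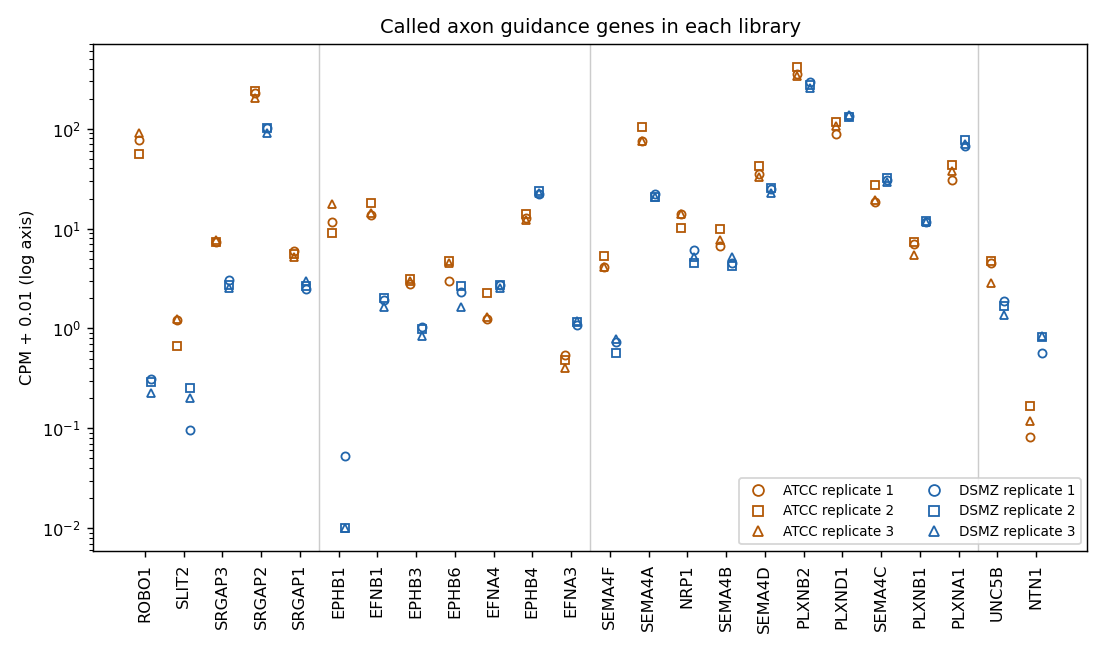
CPM of the 24 called members in each library (log axis, 0.01 added), with ATCC and DSMZ libraries as separate points and vertical lines between families. ROBO1 and EPHB1 show the widest gap between the sources, and no member shows ATCC and DSMZ points that overlap.

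Levels of different genes were compared on the length-scaled TPM values. At least 1 TPM on average was reached by 26 of the 41 members in ATCC and by 21 in DSMZ, 20 of them in both. The highest ATCC means were those of SRGAP2 (135.8 ± 8.58 TPM, SD, n = 3), PLXNB2 (111.6 ± 8.16), PLXND1 (55.6 ± 2.52), SEMA4A (38.5 ± 2.66) and ROBO1 (23.2 ± 9.56). The highest DSMZ means were those of PLXNB2 (78.5 ± 10.4), PLXND1 (77.8 ± 2.64), SRGAP2 (62.7 ± 5.67), PLXNA1 (17.0 ± 3.36) and SEMA4C (14.5 ± 1.27). In DSMZ the neighbours PLXNB2 and PLXND1 were closer than their spread. ROBO1 had rank 5 in ATCC and, at 0.204 ± 0.138 TPM, rank 30 in DSMZ. These sums run over all transcripts of a gene, and short noncoding ones weigh heavily in them. ROBO1-203, a processed transcript of 550 bases with 2.86% of the ATCC counts, held 12.4, 3.50 and 12.7 TPM in ATCC. SRGAP2-208, a processed transcript of 542 bases with 2.48% of the ATCC counts, held 25.6, 19.2 and 30.8 TPM. The order of the genes without such transcripts was not tested.

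Means of at least 1 TPM in ATCC only were found for ROBO1, EPHB1, EPHB3, EFNB1, SEMA3C and SEMA4F, and in DSMZ only for EFNA3, at 1.02 TPM. EPHB1 averaged 3.65 TPM in ATCC and 0.0135 in DSMZ, and EFNB1 5.63 and 0.698. EPHB3 passed that mark through 1 library, with 2.29 TPM in ATCC replicate 1 and 0.886 and 0.856 in the others. SEMA3C averaged 1.38 ± 0.845 TPM on 55 counts.

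**Figure D4:**
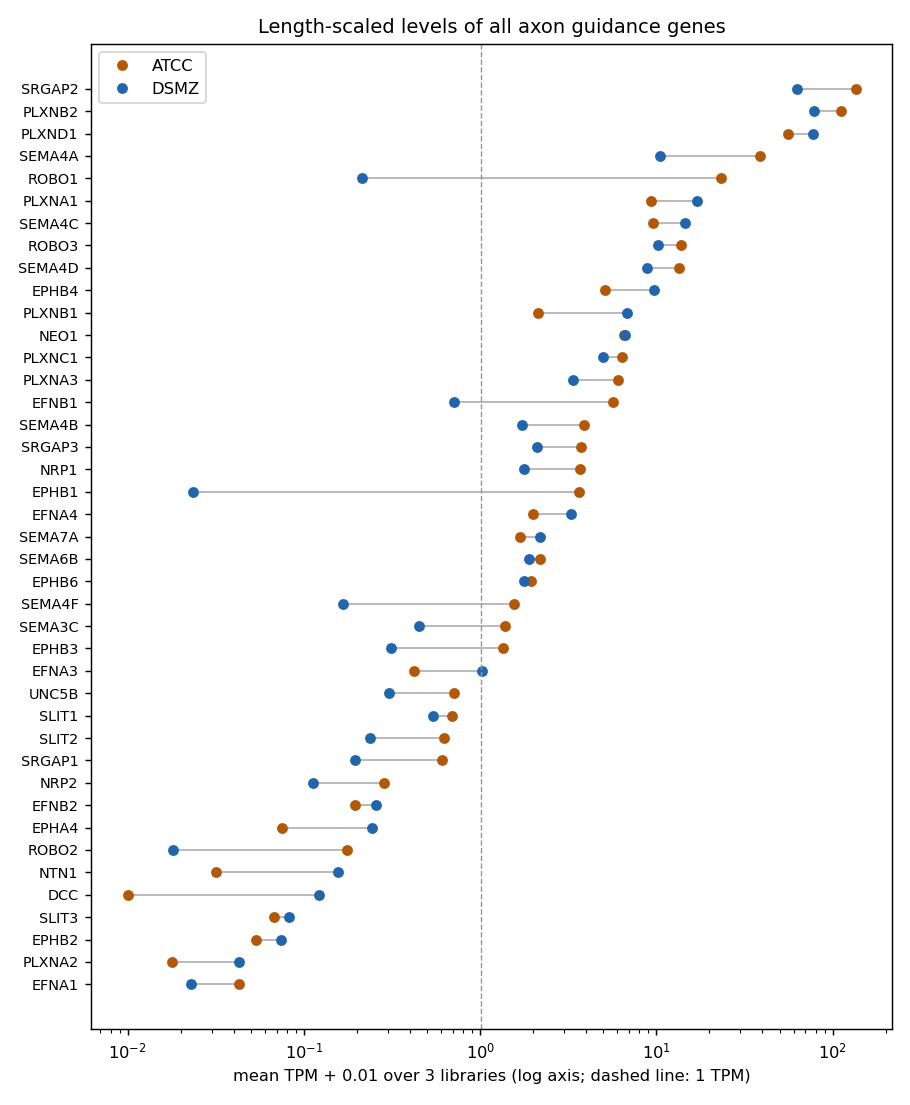
Mean TPM of the 41 members in ATCC and DSMZ (log axis, 0.01 added), joined by a line for each gene, with a dashed line at 1 TPM. SRGAP2, PLXNB2 and PLXND1 lead in both sources, and ROBO1 spans from 23.2 TPM in ATCC to 0.204 TPM in DSMZ.

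Transcripts were described for the 8 called members with the largest fold change and at least 1 TPM in either source. For SEMA4F, SEMA4F-202 held 140.3 estimated counts in ATCC (38.5% of the gene) and none in DSMZ, whereas SEMA4F-210 held 177.6 counts in ATCC (48.7%) and 58.7 in DSMZ (95.8%). SEMA4A-202 held 78.6% of SEMA4A counts in ATCC and 56.6% in DSMZ. SEMA4A-201 held 8.98% and 23.6%, but its share varied widely between libraries and overlapped between the sources. By library it was 3.01, 15.2 and 7.15% in ATCC and 16.9, 0.104 and 45.95% in DSMZ. The protein-coding SRGAP3-202 held 66.7% of SRGAP3 counts in ATCC (404.6) and 40.0% in DSMZ (96.8). A single transcript carried nearly all counts in both sources for EFNB1 (EFNB1-201, 100%), EPHB3 (EPHB3-201, 97.1 and 99.3%) and EFNA3 (EFNA3-201, 92.5 and 92.7%). These shares are kallisto's estimates, given without a test.

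Among 41 other genes of the same families, 19 were tested and 12 were called, 7 higher in DSMZ and 5 in ATCC, against 49.8% called over all tested genes; the median fold change was 0.10. Without the filter on low counts 19 were called, and over all genes 7331 of the 22653 then tested. EPHA7, a receptor for A-type ephrins, measured 7.14, 3.67 and 9.58 CPM in ATCC and 345.3, 313.9 and 326.3 CPM in DSMZ, a fold change of 5.63 (SE 0.34, edgeR adjusted p = 2.4e-05). It lay in the direction opposite to EPHB1. UNC5C, a netrin receptor related to UNC5B, measured 62.6, 42.2 and 59.8 CPM in ATCC and 188.9, 180.1 and 197.1 CPM in DSMZ, a fold change of 1.83 (SE 0.17, edgeR adjusted p = 0.000122). UNC5B and UNC5C thus differed in opposite directions. EFNA5, an A-type ephrin, had a fold change of 1.20 (edgeR adjusted p = 0.00017), like EFNA3 and EFNA4 higher in DSMZ. The semaphorins SEMA4G (3.56, edgeR adjusted p = 0.000288), SEMA6C (1.21, adjusted p = 0.00406) and SEMA3F (0.55, adjusted p = 0.0406) were also higher in DSMZ, and RGMA, a ligand of neogenin, was higher in ATCC (-1.43, adjusted p = 0.00441). The other 4 called higher in ATCC averaged under 1 TPM and are named here after their values were seen: SEMA6D had 144 counts in ATCC and 1 in DSMZ, ROBO4 had 48 and 1, SEMA6A had 84 and 4, and PLXNA4 had 61 and 5. NTNG2, also under 1 TPM, was higher in DSMZ, with 36 counts in ATCC and 136 in DSMZ. The SEMA3F call was lost without any 1 of the libraries other than ATCC replicate 2 (edgeR adjusted p 0.108 to 0.169).

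Of 75 genes for co-receptors, ligands and intracellular effectors of these receptors, 63 were tested and 35 were called, 15 higher in DSMZ and 20 in ATCC, with a median fold change of 0.01. Over all tested genes 49.8% were called, 24.1% higher in DSMZ and 25.7% higher in ATCC, so the share called in this list was near that of all genes. The genes described next are the called ones of largest fold change with a mean of at least 1 TPM in either source. MET (-3.46), KALRN (-1.99), ITGA1 (-1.89) and VEGFC (-1.82) averaged under 1 TPM in both sources. They were called higher in ATCC, with larger fold changes than that of ITGB1 below. CXCR4, the chemokine receptor whose signalling Slit and Robo are known to restrain, measured 23.9, 34.3 and 26.0 CPM in ATCC and 114.3, 102.4 and 89.5 CPM in DSMZ, a fold change of 1.91 (SE 0.16, edgeR adjusted p = 8.4e-05). Its ligand CXCL12 was scarce and higher in ATCC (-2.13, edgeR adjusted p = 0.00441). PTK2, the focal adhesion kinase, measured 21.7, 23.8 and 32.5 CPM in ATCC and 1.24, 1.55 and 2.14 CPM in DSMZ, a fold change of -3.91 (SE 0.25, edgeR adjusted p = 3.2e-05). EXT1, an enzyme that builds the heparan sulfate which Slit binding to Robo needs, had a fold change of -4.31 (edgeR adjusted p = 2.9e-05). EXT1 was 1 of the 20 genes of this list called higher in ATCC. The 15 called higher in DSMZ included GPC1 (0.76, edgeR adjusted p = 0.00329), NCK2 (0.52, adjusted p = 0.0026) and MYO9B (0.33, adjusted p = 0.0234). TRIO, which acts downstream of netrin receptors (2.73, edgeR adjusted p = 8e-06), the integrin chain ITGB1 (1.80, adjusted p = 0.000443) and the phosphatase PTPN13 (5.58, adjusted p = 6.3e-05) were higher in DSMZ, and MICAL2, an actin-oxidising enzyme of the family that acts below plexins, was higher in ATCC (-2.45, adjusted p = 0.00187).

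Fold changes of whole chromosome stretches differed between the sources, so the fold change of each member was set beside the median of the other tested genes within 5 Mb. These medians ran from -1.08 to 1.12. After subtraction the sign was the same for 24 of the 24 called members, and 13 lay beyond 1 on the log2 scale. NRP1 was lower in DSMZ among 25 neighbours with a median of 1.10, of which 17 were called higher in DSMZ and 1 higher in ATCC. UNC5B likewise was lower in DSMZ among 78 neighbours with a median of 0.98, on a chromosome 10 whose median was 1.03. EFNB1 went the same way as its 39 neighbours (median -0.95, 31 called higher in ATCC), and the median of chromosome X was -0.82. SRGAP2 also lay among 75 neighbours with a median of -0.75, and subtraction took its fold change from -1.13 to -0.38. It was therefore not among the 13 beyond 1, whereas SRGAP1 was, at -0.98 before subtraction and -1.54 after it. ROBO1 had 5 tested neighbours, with a median of -1.08, and EPHB1 had 46, with a median of 0.22. The share of these stretches in the members' fold changes was not tested.

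**Figure D5:**
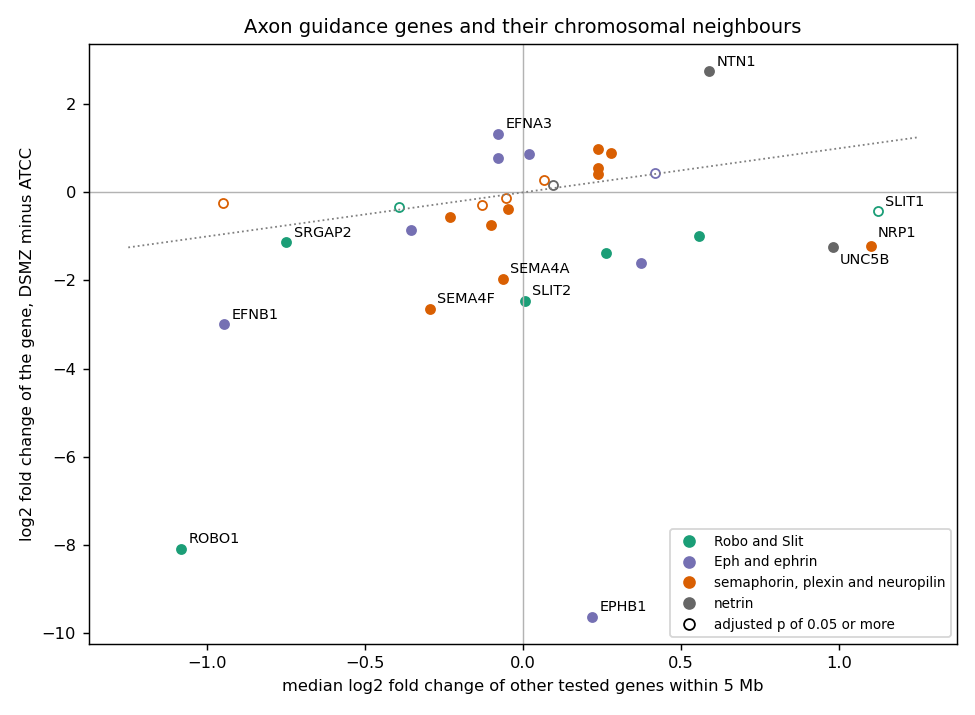
Log2 fold change (DSMZ minus ATCC) of each tested member against the median of the other tested genes within 5 Mb, with a dotted line where the values are equal. ROBO1 and EPHB1 lie far below the line, and NRP1 and UNC5B lie below it among neighbours that were higher in DSMZ.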

How the data were processed

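Poly(A) RNA of 6 untreated THP-1 cultures, 3 from each of 2 cell banks, was extracted with TRIzol and RNeasy columns and made into stranded KAPA libraries, per the labels' protocols. The submitters' processing notes name bcl2fastq 2.20, Trimmomatic 0.35, kallisto 0.43.0 and the build GRCh38. The sources used here do not give the transcript annotation release. Per the file headers, the deposited files give for each transcript an estimated count, not normalized, and a TPM, scaled by transcript length to a common total.

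Transcripts were assigned to GENCODE 29 genes: 163714 (91.0%) on the primary assembly and 14222 by gene symbol (2.42 to 2.85% of counts), with 2037 (0.181 to 0.199% of counts) left out. Estimated counts were summed per gene and rounded, and 14577 genes passed filterByExpr. They were fitted with edgeR 4.0.16 (TMM, quasi-likelihood F test, R 4.3.3) on a design of source alone, with Benjamini-Hochberg adjustment over all tested genes. The threshold was 0.05 and the biological coefficient of variation 15.9%. The SE was obtained as the size of the log2 fold change over the root of F. P-values rest on the spread between replicate expansions. Replicate libraries differed by more than sampling noise, and those of ATCC more than those of DSMZ. The chi-square per degree of freedom was 11.9 to 94.95 between ATCC libraries and 4.36 to 9.28 between DSMZ libraries. On simulated counts of 14394 genes for the DSMZ against ATCC comparison, the test recovered 14 of 67 genes at a 1.5-fold change, 57 of 67 at 2-fold and all 66 at 4-fold, and made 8 false calls. Only those genes were changed in the simulation, and all genes were drawn with a common dispersion. In the data 7265 of 14577 genes were called, which moves the adjusted threshold. The recovered shares and the false calls therefore do not carry over to the data.

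The members and the lists of related genes were chosen with earlier results of these data known. Called members are named with values. Of each related list, up to 8 called genes with the largest absolute fold change and at least 1 TPM in either source are named. Alternatives were other normalizations, DESeq2 1.42.0, limma 3.58.1 on log2(TPM + 0.5), other filters and transcript sets, a GC correction (GC known for 99.9% of tested genes), a replicate block, thinning and leaving out each library. Promoter sequences were taken from RefSeq, where 37 of the 41 members had an entry. Protein sequences were not used here. Figures were drawn with matplotlib 3.10.9.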

Additional observations from a re-analysis of the deposited data

How the results depend on the processing

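Over 18 alternatives, the number of members called ran from 21 to 27, the number higher in ATCC from 15 to 18 and the number higher in DSMZ from 5 to 10, and no called member changed direction. PLXNC1, which was not called, turned from -0.13 to 0.0065 without ATCC replicate 1 and to 0.03 without DSMZ replicate 3. The number higher in DSMZ was 5 with upper quartile normalization, and 5 to 10 when single libraries were left out. The calls of 18 of the 24 members were kept by every alternative that tested them, and those of EPHB6, EFNA4, SEMA4C, SEMA4D, PLXNB2 and PLXND1 were lost by at least 1; ROBO3, SLIT1, SEMA7A, PLXNA3 and NEO1 passed under at least 1. Without a filter on low counts, 19 of the other family genes were called in place of 12, and 7331 of 22653 genes over all. Of the 9 untested members, SEMA3C (-3.19, edgeR adjusted p = 0.00157) and NRP2 (-1.80, adjusted p = 0.0117) passed in that setting and 7 did not. On log2(TPM + 0.5), where the pseudocount shrinks low genes, limma gave smaller fold changes for ROBO1 (-4.995), EPHB1 (-2.96), SLIT2 (-0.62) and NTN1 (0.31), all still called. Across all genes, 9515 were called without ATCC replicate 2 and 9386 with a GC correction, against 7265. Deviations of same-numbered libraries correlated at 0.0126, 0.0803 and 0.162, and those of differently numbered libraries at -0.103 to 0.0258. Each same-numbered value was the highest for its ATCC library, but all were low, so these values do not settle whether the replicate numbers pair the samples. With the replicate block 24 members were called, 16 of them higher in ATCC. Depth limits the scarce members: 3 counts over a source correspond to 0.0368 CPM in ATCC and 0.0338 CPM in DSMZ.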
